A study of Mus musculus with 12 samples.

Results

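Genes of cholesterol synthesis and transport were followed in nuclei of the embryonic mouse cortex after prenatal exposure to ethanol (EtOH) or saline. They were taken as a list of 28 named genes, all of which were found among the 23513 genes of the count tables. The list holds 7 genes of the mevalonate pathway, 1 gene of the geranylgeranyl branch, 3 genes from squalene to lanosterol, 9 genes from lanosterol to cholesterol, 5 regulators and 3 transport genes. Dams of the C57BL/6J strain received 1 intraperitoneal injection a day, 6 in all, the first at E8 and the last at E13. The injection held either saline alone or EtOH at 25% v/v, dosed at 2.5 g/kg, and the cortex of the embryos was collected at E14. The tables hold 5 saline embryos (S1-1, S1-2, S2-1, S2-2 and S2-4, named by dam and sample) and 6 EtOH embryos (E1-1, E1-2 and E2-1 to E2-4). Each treatment thus rests on 2 dams, whose number is also that of the batch, and embryos of 1 dam are littermates. Single nucleus RNA sequencing (snRNAseq) counts unique molecular identifiers (UMIs), each of which marks 1 captured transcript. The 25 deposited clusters were grouped into radial glial cells (RGC, 5 clusters, including Cluster 3 of interneuron precursors), intermediate progenitor cells (IPC, 2 clusters), projection neurons (PN, 8 clusters), interneurons (Int, 7 clusters) and 3 other clusters (striatal, Cajal-Retzius and an unnamed one).

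Cholesterol is built from acetyl-CoA through mevalonate and isoprenoids to squalene, which is closed to lanosterol and then trimmed and reduced to cholesterol. When sterols in the endoplasmic reticulum run low, SCAP carries the SREBP transcription factors to the Golgi for cleavage and they switch the pathway genes on, while INSIG proteins hold SCAP back when sterols are plentiful. The fetal brain makes much of its own cholesterol, which dividing progenitors need for membrane and which Sonic hedgehog signalling needs as well.

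SREBPs bind a sterol regulatory element together with NF-Y, which binds a CCAAT box, and these letters were looked for in the promoters of the genes. RefSeq promoters (GRCm38.p6, 250 bases before to 50 after the start of a gene) were given for 23 of the 28 genes. The CCAAT box (CCAAT, either strand) was found in 21 of these 23 promoters and in 42.3% of 17492 protein-coding promoters. The GC box (GGGCGG, either strand) was also found in 21 of 23, against 49.2% of protein-coding promoters. The sterol element TCACNCCAC (either strand) was found in 1 of 23, that of Hmgcs1, against 1.41% of protein-coding promoters. None of the 3 motifs contains another, and a match describes letters only. Stretches before the RefSeq start of 5 genes that the results turn on are shown 5′ to 3′ on the strand of the gene, with the CCAAT box (ATTGG where it lies on the other strand) and, in Hmgcs1, the sterol element TCACCCCAC in capitals. They lie at chr13:119690161-119690240 (plus strand, Hmgcs1), chr15:82147099-82147168 (plus strand, Srebf2), chr1:181842412-181842481 (minus strand, Lbr), chr12:84773154-84773212 (minus strand, Npc2) and chr13:8885556-8885584 (plus strand, Idi1). The gene starts of GENCODE M21 lie further upstream for Lbr and Idi1, so that these 2 stretches fall inside the GENCODE span of their gene.
Hmgcs1: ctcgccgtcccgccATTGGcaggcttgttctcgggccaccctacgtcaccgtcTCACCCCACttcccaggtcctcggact
Srebf2: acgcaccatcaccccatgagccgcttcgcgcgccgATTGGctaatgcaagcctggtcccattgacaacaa
Lbr: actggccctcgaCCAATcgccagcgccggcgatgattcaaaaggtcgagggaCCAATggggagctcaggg
Npc2: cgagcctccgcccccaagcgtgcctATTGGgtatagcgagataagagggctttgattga
Idi1: agctgATTGGcgagcccgggcatggtcca

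The tables hold 50550 nuclei, 2346 to 7639 per embryo. Total counts were lower in EtOH embryos (14.1 to 38.0, in units of 1e6 UMIs) than in saline embryos (44.0 to 83.1), so that values of the EtOH group carry more counting error. These ranges did not overlap, so differences that go with EtOH and with depth cannot be told apart in this design. Median UMIs per nucleus were 4071.5 to 6911 in EtOH embryos and 8365 to 9051 in 4 saline embryos, with saline embryo S2-4, at 6325, inside the EtOH range. S2-4 also stood with the EtOH embryos by expression, lying within their range on the first principal component in 5 of 5 classes. Results are therefore also given without it. Because it was picked for lying with the EtOH group, leaving it out favours smaller p and more calls. Such values are not separate support. By its 7215 nuclei and its total counts S2-4 lay with the saline embryos and above each EtOH embryo. It was kept in the saline group as labelled, and whether that label is right could not be settled here, which bears on each saline mean and each test that includes it. In all, 311 cell barcodes occurred in 2 libraries, 2 in 3 libraries and 1 in 10 libraries. The marker Hes1 was highest in RGC (74.1 ± 21.1 CPM, SD, n = 11), Eomes in IPC (347 ± 34.0), Neurod2 in PN (187 ± 52.1) and Gad2 in Int (962 ± 75.1), as the class names say. Levels are CPM, the UMIs of a gene per 1e6 UMIs summed over an embryo and class or cluster, with the SD over embryos. They are not corrected for gene length, so each gene was compared with itself across cells.

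Most of the genes peaked in 1 of the RGC Clusters 12, 3 and 2. Of the 28 genes, 17 had their highest mean in an RGC cluster, 12 of them in the non-mitotic RGC of Cluster 12, while 7 peaked in a PN cluster, 1 in an IPC cluster, 1 in an Int cluster and 2 among the other clusters. For none of the 28 genes did the highest cluster stand more than 1 SD on each side apart from the next. The share of all genes that peak in an RGC cluster is not given here. RGC clusters also differed, and in the cortical hem RGC of Cluster 21 Srebf2 had 107 ± 15.2 CPM, below its median of 118 over clusters. Ggps1 was second highest there, at 65.2 ± 13.4 CPM. The clusters were made from these same nuclei, so the levels are given as a description without a test. In RGC sums, 19 of the 27 genes compared were above PN in all 11 embryos and 0 were below PN in all 11. Over all genes, 52.4% were above PN in all 11 embryos. The median log2 ratio of RGC to PN was 0.46 for the 27 genes and 0.42 for all genes. RGC sums were thus high relative to PN sums for genes in general. Against IPC, 9 of 26 genes were above in all 11 embryos and 1 was below, against 27.2% and 15.1% of all genes.

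**Figure D1:**
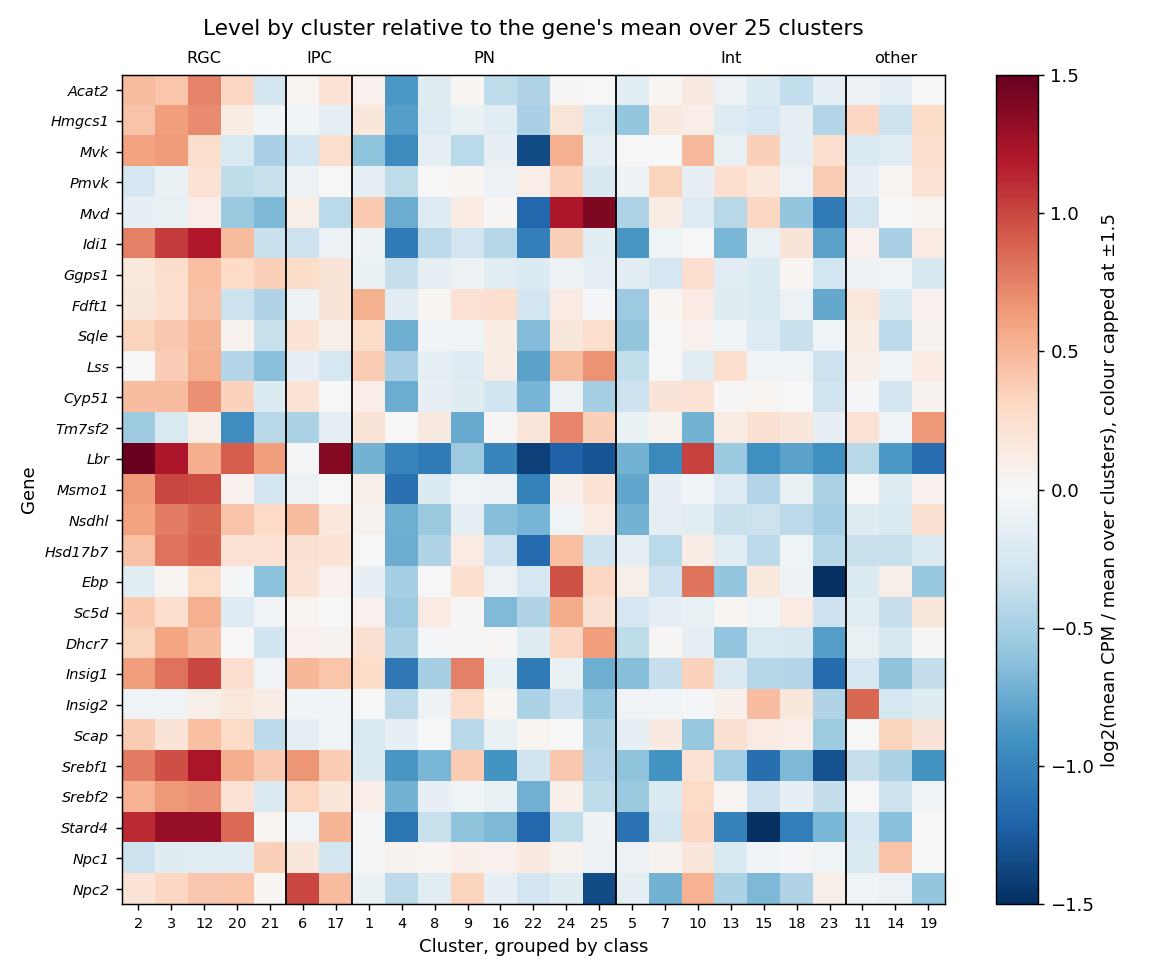
Mean CPM of 27 genes (rows; Fdps is left out at 80 UMIs in all) in 25 clusters (columns, grouped by class), as the log2 ratio to the mean of the gene over the clusters, with red above and blue below that mean. Lbr, Stard4, Idi1 and Srebf1 show strong red in RGC Clusters 2 and 3, and Cluster 4 is blue for most synthesis genes.

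Among the mevalonate genes, Hmgcs1, which makes HMG-CoA, had 78.1 ± 7.5 CPM in RGC, 53.4 ± 6.6 in IPC, 47.8 ± 3.4 in PN and 50.7 ± 6.7 in Int (SD, n = 11 embryos). Idi1, the isomerase that interconverts the isoprenoid building units, had 12.8 ± 2.5 CPM in RGC and 5.2 ± 0.61 in PN, a ratio of 2.46. It ranged from 16.4 ± 6.4 CPM in Cluster 12 to 3.4 ± 0.93 in Cluster 4, the rostral subcortical PN. Acat2, which joins acetyl-CoA units, and Mvk, the mevalonate kinase, were also above PN in all 11 embryos, with ratios of 1.63 and 1.96. Pmvk and Mvd, the kinase and decarboxylase that follow, were near even between RGC and PN, at 11.7 ± 1.3 against 11.6 ± 1.1 CPM and at 4.3 ± 0.94 against 4.4 ± 0.57 CPM. Fdps, which makes farnesyl diphosphate, had 80 UMIs in all and was tested in no class. Ggps1, which makes the geranylgeranyl diphosphate used to anchor proteins to membranes, had 60.6 ± 5.5 CPM in RGC, 60.5 ± 8.2 in IPC and 44.4 ± 4.4 in PN.

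From squalene to lanosterol, Sqle, the squalene epoxidase, had 46.3 ± 5.6 CPM in RGC and 33.5 ± 4.0 in PN. Fdft1, the squalene synthase, was near even at 86.4 ± 10.7 and 84.2 ± 6.9 CPM, and its highest cluster was the callosal PN of Cluster 1 (110.6 ± 13.7 CPM). Lss, the lanosterol synthase, had 18.8 ± 2.7 CPM in RGC and 16.4 ± 1.5 in PN.

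The steps after lanosterol held the widest spread. Lbr, a nuclear envelope protein that also has sterol C14 reductase activity, had 80.1 ± 5.0 CPM in RGC, 49.7 ± 7.2 in IPC, 25.99 ± 3.6 in Int and 17.8 ± 3.3 in PN. It was high in Cluster 2 (99.2 ± 7.3 CPM), in the mitotic IPC of Cluster 17 (86.0 ± 12.4) and in the late Int precursors of Cluster 10 (67.6 ± 8.6), and lower in the non-mitotic RGC of Cluster 12 (48.6 ± 9.9). Tm7sf2, the other sterol C14 reductase, went the other way, with 8.3 ± 2.6 CPM in RGC and 10.98 ± 1.9 in PN, and it was above PN in 2 of 11 embryos. Cyp51, the lanosterol demethylase, had 57.7 ± 8.7 CPM in RGC and 35.0 ± 3.2 in PN. Msmo1, Nsdhl and Hsd17b7, which act together in removing the C4 methyl groups, were 2.07, 2.05 and 1.86 times as high in RGC as in PN. Sc5d and Dhcr7, which act in the last steps, were 1.36 and 1.35 times as high. Ebp, the sterol isomerase, was low everywhere, with 2.4 ± 0.74 CPM in RGC and 2.2 ± 0.55 in PN.

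Of the regulators, Srebf2, which encodes the SREBP that drives sterol synthesis, had 177 ± 17.01 CPM in RGC, 149 ± 18.7 in IPC, 107 ± 6.5 in Int and 105 ± 8.6 in PN. Srebf1, which encodes the SREBP tied more to fatty acid synthesis, had 16.99 ± 3.3 CPM in RGC and 6.9 ± 1.2 in PN. Insig1 had 18.03 ± 2.4 CPM in RGC and 9.8 ± 1.3 in PN, whereas Insig2 was even between them (32.6 ± 3.2 and 29.9 ± 2.7) and highest in the striatal Cluster 11 (59.5 ± 9.8). Scap was 1.35 times as high in RGC as in PN. Across the 25 clusters, the order of Srebf2 levels was most like that of Insig1 (Spearman 0.90), Cyp51 (0.85) and Acat2 (0.83), and least like that of Npc1 (-0.35) and Tm7sf2 (-0.31). These are descriptions over 25 clusters that share libraries and depth.

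The transport genes each had their own place. Stard4, a soluble carrier of cholesterol, had 19.6 ± 3.0 CPM in RGC and 6.1 ± 0.69 in PN. Npc2, the small lysosomal protein that hands cholesterol to NPC1, was highest in IPC, at 56.0 ± 11.7 CPM against 37.7 ± 6.1 in RGC and 27.5 ± 2.8 in PN. Npc1, the membrane protein that moves cholesterol out of lysosomes, had 35.8 ± 3.5 CPM in RGC and 42.03 ± 3.2 in PN, and was above PN in RGC in 1 of 11 embryos.

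EtOH and saline were then compared with the embryo as the replicate. A gene was called when edgeR's quasi-likelihood test gave a Benjamini-Hochberg adjusted p under 0.05 over all genes of the fit and the level was more than 25% above or 20% below saline. Within single clusters, 0 of 484 pairs of a gene and a cluster were called, against 0.792% of all pairs tested. An unadjusted p under 0.05 was found for 62 of the 484 pairs (12.8%), against 17.4% of all pairs, and DESeq2 called 1 of the 484 pairs (2.61% of all pairs). The nearest was Npc2 in the non-mitotic IPC of Cluster 6, with a log2 fold change of 0.46 (SE 0.10) and an adjusted p of 0.0596 by edgeR. In class sums 3 genes were called, Idi1 in RGC, Npc2 in IPC and Lbr in PN. That is 1 of 27 genes in RGC against 3.79% of all genes, 1 of 26 in IPC against 1.52%, and 1 of 27 in PN against 6.53%. An unadjusted p under 0.05 was found for 6 of the 26 in IPC, against 23.7% of all genes, and for 6 of the 27 in PN, against 32.8%. In Int 0 of 27 and in the other clusters 0 of 26 were called, against 3.18% of all genes in these classes. By edgeR 6 of the 27 in Int had an unadjusted p under 0.05, against 28.3% of all genes, and 3 of the 26 in the other clusters, against 22.4%. Over the 5 classes 3.75% of all genes were called, so the called shares were near those of genes in general.

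**Figure D2:**
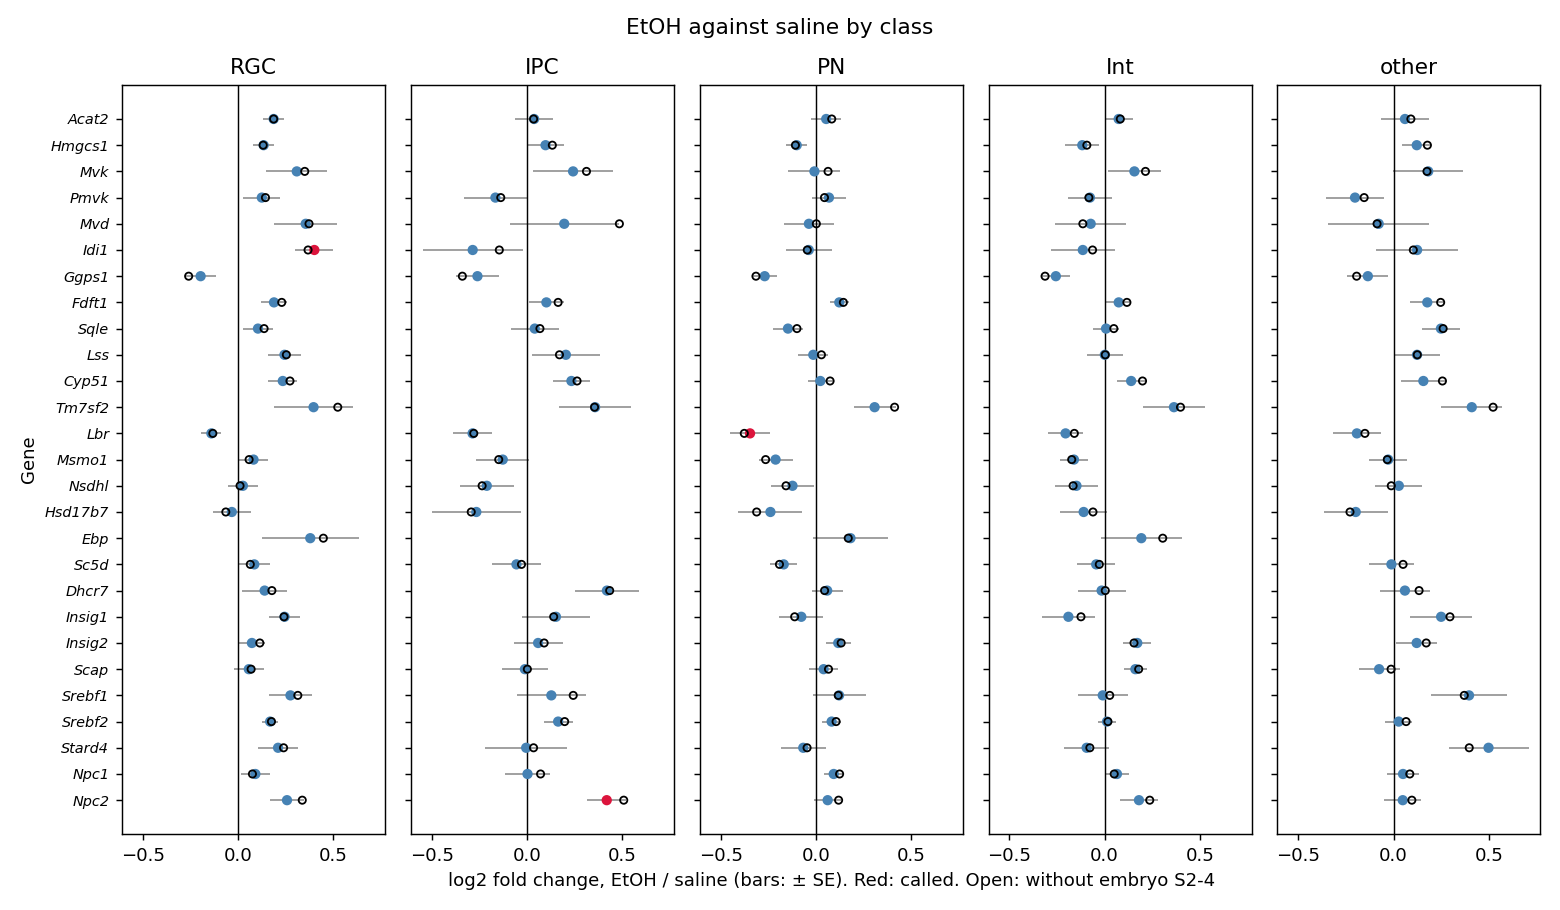
Log2 fold change of EtOH over saline (x axis) for 27 genes (rows) in the sums of the 5 classes (panels), with bars of 1 SE, called genes in red and values without saline embryo S2-4 as open circles. In RGC 24 of 27 points lie above 0, and in PN 13 of 27. Ggps1, Lbr and Hsd17b7 lie below 0 in each panel, and Tm7sf2, Acat2, Fdft1, Cyp51, Insig2, Srebf2, Npc1 and Npc2 above 0.

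Idi1 rose in RGC. Its levels were 10.6, 10.8, 9.4, 11.8 and 10.3 CPM in saline embryos S1-1, S1-2, S2-1, S2-2 and S2-4, and ranged from 13.3 over a median of 14.9 to 16.9 CPM in the 6 EtOH embryos. The groups did not overlap. The log2 fold change was 0.40 (SE 0.10) with an edgeR adjusted p of 0.0427, and 0.37 with an adjusted p of 0.0177 without S2-4. Leaving out any 1 of the other embryos ended the call, with an edgeR adjusted p up to 0.113. So did leaving out nuclei with a shared barcode (edgeR adjusted p 0.0529) and summing per dam (0.168). The call was also lost without the low-count filter (edgeR adjusted p 0.0721) and with counts thinned to the smallest library (0.372). By CPM the log2 ratio was 0.50 in batch 1 and 0.48 in batch 2. Idi1 (chr13:8885501-8892451, plus strand) overlaps Gm48574 on the other strand. The paper names a 3′ kit and default Cell Ranger settings and does not state the strand counted. It was higher in EtOH in the 3 RGC clusters where it could be tested, by 0.30 (SE 0.17) in Cluster 2, 0.54 (SE 0.20) in Cluster 3 and 0.57 (SE 0.30) in Cluster 12 on the log2 scale, of which none was called. In PN its log2 fold change was -0.037 (edgeR adjusted p 0.982).

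The other genes in RGC mostly had small positive differences. Of 27 genes, 24 had a log2 fold change above 0, against 50.7% of all genes, and the median was 0.17 against 0.004 for all genes. An unadjusted p under 0.05 was found for 13 of the 27, against 29.8% of all genes. The 6 mevalonate genes tested and the 5 regulators all lay above 0, with medians of 0.25 and 0.17. Below 0 lay Ggps1, Lbr and Hsd17b7. In 6 genes (Acat2, Hmgcs1, Idi1, Lss, Insig1 and Srebf2) the 6 EtOH embryos were all above the 5 saline embryos, which held for 2.00% of all genes in RGC. Without S2-4 it held for 10 of the 27 genes and for 14.6% of all genes. The median over genes of the log2 difference from the saline mean was -0.090, -0.067, -0.077, 0.099 and 0.148 in the saline embryos, and 0.159 to 0.331 in the EtOH embryos. Embryo S2-4 was the highest of the saline embryos. Unscaled CPM values were higher in EtOH for genes in general, by a median of 0.073 in RGC on the log2 scale, and the fits with TMM scaling take this shift out. The comparison of single embryos used unscaled values. Highest saline and lowest EtOH values were 78.5 and 78.9 CPM for Hmgcs1, 18.3 and 18.6 for Lss, and 175.8 and 183.0 for Srebf2. These gaps were smaller than the shift. The radial glial marker Hes1 went with the groups in RGC sums, at 58.4 ± 12.7 CPM in saline and 87.2 ± 17.5 in EtOH, as did the sum of the pan-neuronal markers Dcx and Map2, at 1160 to 1423 CPM in saline and 1030 to 1201 in EtOH. Cluster 12, where many of the genes peaked, held 17.5% ± 1.8 of RGC nuclei in saline and 19.8% ± 2.8 in EtOH. Mki67 had 249 ± 26.2 CPM in saline RGC and 203 ± 9.97 in EtOH RGC, Top2a went the other way, with 511 ± 124 and 569 ± 31.6, and Gad2 had 103 ± 27.7 and 76.04 ± 9.2. The part of these in the RGC differences was not tested, and in class sums a shift in the mix of nuclei and a change within nuclei cannot be told apart.

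Srebf2 in RGC had 159.0, 158.4, 152.7, 160.3 and 175.8 CPM in the saline embryos, and 183.0 to 198.8 CPM, with a median of 190.7, in EtOH embryos. The groups did not overlap, and the log2 fold change of 0.17 (SE 0.04) had an edgeR adjusted p of 0.0444, under the threshold, but its fold of 1.12 was too small for a call. Hmgcs1 had 67.8, 68.3, 68.9, 78.5 and 76.4 CPM in saline and 78.9 to 91.7 CPM in EtOH, with a log2 fold change of 0.13 (SE 0.05, edgeR adjusted p 0.112). Insig1 had 14.7, 14.8, 16.04, 17.1 and 16.8 CPM in saline and 18.2 to 22.1 CPM in EtOH, with a log2 fold change of 0.24 (SE 0.08, edgeR adjusted p 0.069). Acat2 had a log2 fold change of 0.19 (SE 0.05, edgeR adjusted p 0.0554). The largest differences among the genes not called were those of Tm7sf2, 0.40 (SE 0.21), and Ebp, 0.38 (SE 0.26), whose groups overlapped.

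**Figure D3:**
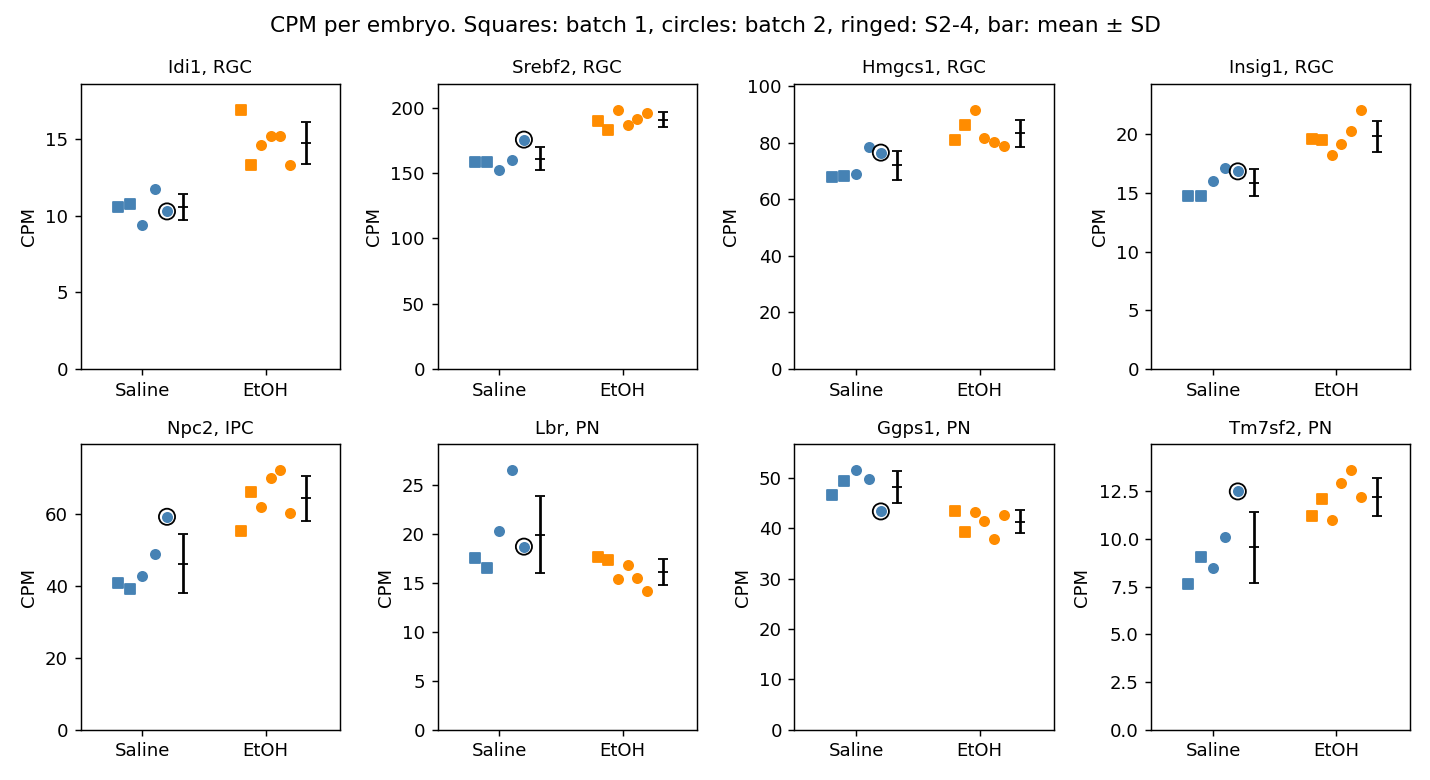
CPM per embryo (y axis, from 0) in saline (blue) and EtOH (orange) for 8 pairs of a gene and a class, with squares for batch 1, circles for batch 2, a ring around S2-4 and bars for mean ± SD. Idi1, Srebf2, Hmgcs1 and Insig1 in RGC do not overlap between the groups in unscaled CPM, while for Npc2, Ggps1 and Tm7sf2 the ringed saline embryo lies among the EtOH embryos.

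Whether the EtOH difference was larger in RGC than in PN, Int or IPC was tested, and not against the other clusters, in fits with the embryo as a block, a comparison added with the class results in view. Against PN, with both classes fitted together, 27 of 27 genes had a larger log2 fold change in RGC, and 26 with the batch added. The median difference was 0.25, against 0.06 for all genes. In the separate class fits above, Insig2 (0.073 in RGC, 0.118 in PN) and Npc1 (0.091 and 0.094) were not larger in RGC. None was called, the smallest edgeR adjusted p being 0.165, and 14 had an unadjusted p under 0.05, against 11.2% of all genes. The smallest p belonged to Hmgcs1, with a difference of 0.29 (SE 0.07), Cyp51, 0.26 (SE 0.07), and Sqle, 0.30 (SE 0.08). Against Int, 25 of 27 were larger in RGC, with a median difference of 0.20 against 0.05, and 9 had an unadjusted p under 0.05, against 11.2% of all genes. Srebf2 had the smallest edgeR adjusted p there, 0.153, for a difference of 0.21 (SE 0.05). Against IPC, 25 of 27 were larger, with a median of 0.12 against 0.03. There 1 gene, Idi1, had an unadjusted p under 0.05, against 4.45% of all genes. These contrasts share the RGC sums and are not separate evidence.

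**Figure D4:**
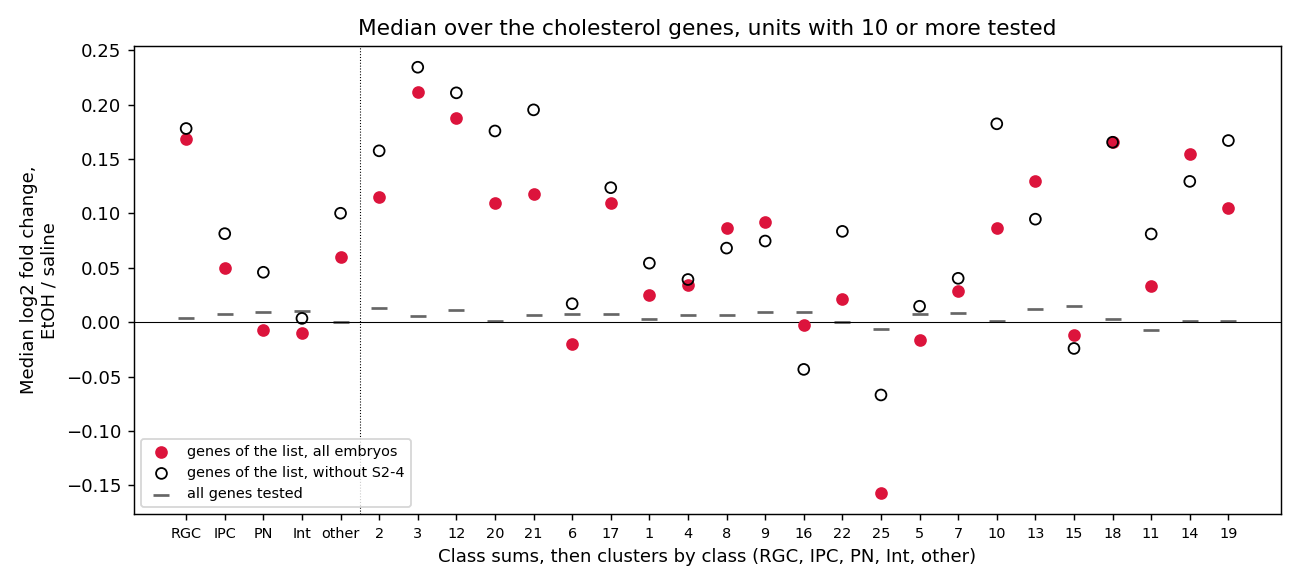
Median log2 fold change of EtOH over saline (y axis) over the cholesterol genes in 5 class sums and, right of the dotted line, in clusters with 10 or more of the genes tested, for all embryos (filled) and without S2-4 (open), with the median of all genes as a dash. The 5 RGC clusters lie between 0.11 and 0.21, some Int and other clusters (13, 14, 18) lie as high, and the medians of PN and Int sums lie near 0.

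Npc2 rose in IPC. It had 40.9, 39.2, 42.6, 48.7 and 59.2 CPM in saline embryos S1-1, S1-2, S2-1, S2-2 and S2-4, and 55.3 to 72.1 CPM, with a median of 63.9, in EtOH embryos. Only S2-4 among the saline embryos lay within the range of the EtOH embryos. The log2 fold change was 0.42 (SE 0.10, edgeR adjusted p 0.0491), and 0.51 without S2-4 (adjusted p 0.001). The call was lost without any 1 of the other embryos, with an edgeR adjusted p up to 0.138. It was also lost with the batch as a block (edgeR adjusted p 0.0559), with the dam as a random block (limma voom, adjusted p 0.0568) and with sums per dam (edgeR adjusted p 0.212). By CPM the log2 ratio was 0.60 in batch 1 and 0.40 in batch 2. Npc2 is also known to be abundant in microglia. The authors removed a microglia cluster before the clustering used here, but the summed level of 4 microglia markers (P2ry12, Ly86, Cx3cr1 and Csf1r) moved with the groups. In IPC this sum was 10.0 to 26.9 CPM in saline, with S2-4 the highest, and 22.45 to 32.4 CPM in EtOH. Cx3cr1 had 9.3 ± 3.4 CPM in saline and 16.6 ± 2.4 in EtOH, and P2ry12 had 4.7 ± 3.3 and 9.6 ± 2.0. Csf1r had 0.94 ± 0.27 and 1.0 ± 0.59 CPM, and Ly86 went the other way, with 0.68 ± 0.28 and 0.24 ± 0.37 CPM and a lowest EtOH value of 0. In PN the sum was 8.9 to 21.2 CPM in saline and 18.4 to 27.4 in EtOH (Npc2 log2 fold change 0.063, SE 0.07). In the other clusters it was 26.99 to 68.8 and 49.9 to 82.4 CPM (Npc2 0.049, SE 0.10), mostly from P2ry12 (27.8 ± 13.7 and 54.3 ± 8.1). In Int, with Npc2 at 0.18 (SE 0.10), P2ry12 had 9.0 ± 3.0 and 15.9 ± 3.2 CPM. Cx3cr1 had 9.3 ± 3.6 and 14.1 ± 1.6 there, and Ly86 again went the other way. Other markers in IPC differed as well, with 370 ± 20.7 CPM in saline and 328 ± 31.5 in EtOH for Eomes, 112 ± 17.98 and 83.8 ± 9.96 for Neurod2, 134 ± 18.95 and 106 ± 5.6 for Mki67, and 76.9 ± 25.7 and 54.8 ± 14.5 for Gad2. The part of all these markers in the result was not tested. In RGC, Npc2 had a log2 fold change of 0.26 (SE 0.09, edgeR adjusted p 0.0806), and the microglia sum there was 14.4 to 40.5 CPM in saline and 38.3 to 48.2 CPM in EtOH.

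Lbr fell in PN. It had 17.5, 16.5, 20.3, 26.5 and 18.7 CPM in saline and 14.1 to 17.6 CPM, with a median of 16.1, in EtOH. The groups overlapped, and saline embryo S2-2 was the highest. The log2 fold change was -0.35 (SE 0.10, edgeR adjusted p 0.0465), and -0.38 without S2-4 (adjusted p 0.0116). Here too no call was left without any 1 of the other embryos, with an edgeR adjusted p up to 0.1, nor with the batch as a block (edgeR adjusted p 0.0535), the dam as a random block (limma voom, adjusted p 0.0778) or sums per dam (edgeR adjusted p 0.216). By CPM the log2 ratio was 0.04 in batch 1 and -0.50 in batch 2, so the difference was not seen within batch 1. The proliferation markers Top2a and Mki67 had a sum of 37.3 to 71.2 CPM in saline PN and 22.8 to 45.2 CPM in EtOH PN. The IPC marker Eomes had 18.7 ± 4.7 CPM in saline PN and 12.04 ± 1.5 in EtOH PN, Neurod2 had 232 ± 45.8 and 150 ± 6.9, and Gad2 had 51.5 ± 24.5 and 30.6 ± 10.3. The part of these markers was not tested. Lbr overlaps Dnah14 on the other strand and Gm26004 on its own strand. The log2 fold changes in RGC, IPC, Int and the other clusters were -0.14, -0.29, -0.21 and -0.19, none of them called. In Int, counts thinned to the smallest library turned the sign, to 0.11, and in the other clusters to 0.052.

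Ggps1 and Tm7sf2 had the same sign in each of the 5 classes without a call. The same held for Acat2, Fdft1, Cyp51, Insig2, Srebf2 and Npc1, higher in EtOH in each, and for Hsd17b7, lower in each. Some of these log2 fold changes were very small, such as 0.013 for Srebf2 in Int and 0.0034 for Npc1 in IPC. Ggps1 in PN had 46.6, 49.4, 51.5, 49.7 and 43.3 CPM in saline and 37.8 to 43.4 CPM in EtOH, where of the saline embryos S2-4 alone lay within the EtOH range. Its log2 fold change of -0.27 (SE 0.06) had an edgeR adjusted p of 0.0299, and its fold of 0.83 was inside the limits for a call. In the other classes it lay between -0.26 and -0.13. Ggps1 overlaps Arid4b on the other strand. Tm7sf2 in PN had 7.7, 9.0, 8.5, 10.1 and 12.5 CPM in saline and 11.002 to 13.6 CPM in EtOH, again with S2-4 alone of the saline embryos in the EtOH range. Its log2 fold changes were 0.31 in PN, 0.36 in IPC, 0.36 in Int, 0.40 in RGC and 0.41 in the other clusters, with edgeR adjusted p between 0.0726 and 0.268. It shares its strand with Vps51, which overlaps it, so reads from the overlap could stem from either gene.

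Leaving out S2-4, which was picked because it lay with the EtOH embryos, raised the calls to 7 in class sums and 10 in clusters. The share over all genes was then 16.9% in the 5 classes and 8.78% of pairs in clusters. The class calls were Idi1 and Npc2 in RGC, Npc2 and Ggps1 in IPC, Tm7sf2 and Lbr in PN, and Tm7sf2 in the other clusters. Among clusters, Sqle had a log2 fold change of 0.48 (SE 0.12) in the striatal Cluster 11 and Fdft1 one of 0.60 (SE 0.16) in Cluster 19. Ggps1 was lower in Clusters 4, 6 and 8, Npc2 higher in Clusters 6 and 12, Tm7sf2 higher in Clusters 1 and 8, and Lbr lower in Cluster 8.

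Dhcr7 in IPC had a log2 fold change of 0.42 (SE 0.17, edgeR adjusted p 0.141), with 0.98 in batch 1 and 0.20 in batch 2 by CPM. In the other clusters, Stard4 had 0.50 (SE 0.21), Srebf1 0.40 (SE 0.20) and Sqle 0.25 (SE 0.10), with edgeR adjusted p between 0.151 and 0.253. In Int, Insig2 and Scap had 0.17 (SE 0.07) and 0.16 (SE 0.06), with edgeR adjusted p of 0.14 and 0.10.

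A second list of 30 genes of sterol uptake, efflux, storage, sensing and fatty acid synthesis was tested beside them. In IPC 2 of 26 tested were called, both higher, and in RGC, PN, Int and the other clusters 0 of 29, 28, 28 and 27, with 5, 5, 1 and 2 at an unadjusted p under 0.05. The shares of all genes at that p were 29.8%, 32.8%, 28.3% and 22.4%, and 1.52% of all genes were called in IPC. The genes called in IPC with all embryos were Mbtps1, which encodes the site-1 protease that cleaves SREBPs, and Erlin1, an endoplasmic reticulum protein that takes part in degrading HMG-CoA reductase. Mbtps1 in IPC went from 56.8 ± 7.6 CPM in saline to 77.8 ± 7.6 in EtOH, with a log2 fold change of 0.39 (SE 0.09). Erlin1 went from 29.6 ± 5.0 to 44.5 ± 7.4 CPM, with a log2 fold change of 0.53 (SE 0.12). Both had an edgeR adjusted p of 0.0479, near the threshold. Without E2-2, S1-2 or S2-1 no gene at all was called in any class, so neither call was left. In RGC, Mbtps1 had 0.30 (SE 0.07, edgeR adjusted p 0.0402), with a fold of 1.23 that was too small for a call. Erlin1 had 0.58 there (SE 0.18, edgeR adjusted p 0.0695), also without a call, with 47.6 ± 14.9 CPM in saline and 74.1 ± 14.5 in EtOH. Without S2-4 the counts called were 3 of 29 in RGC, 2 of 26 in IPC, 2 of 28 in PN, 0 of 28 in Int and 0 of 27 in the other clusters, against 16.9% of all genes over the classes. Over the 25 clusters 10 of 499 pairs were then called higher and 1 lower, against 8.78% of all pairs, and 0 of 495 were called with S2-4.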

How the data were processed

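Nuclei were sequenced by snRNAseq with 10x chemistry, and counts of 11 embryos were used here. Per the labels, the authors used Cell Ranger on mm10, and they deposited raw UMI counts per nucleus for each embryo and cluster in 275 tables, after filtering nuclei and genes. A further saline embryo is named in the labels without counts and was not analysed here. The paper reports that its authors left out 1 saline sample, whose cells were spread over the clusters unlike those of the others. It does not name that sample. Doublets were not called here. Counts were summed per embryo and cluster (at least 10 nuclei, which 9 pairs missed) or class, and tested with edgeR 4.0.16 (TMM, filterByExpr, robust quasi-likelihood) in R 4.3.3, with Benjamini-Hochberg adjustment over all genes of a fit. SEs were the log2 fold change over the square root of F, which disagreed with p for a few changes near 0, whose SEs are drawn but not printed. Littermates count as independent embryos, so that p-values measure the spread between embryos, not dams. The genes and lists were chosen with earlier results of these data known. Genes were named where called, or among the 3 smallest p or 3 largest changes of a class, and single others after their values were seen. Alternatives were DESeq2 1.42.0, limma 3.58.1 (voom), other scaling, filters and thinning, sums per dam, batch, leaving out embryos, and leaving out shared barcodes. On simulated RGC counts, 196 of 200 genes changed 1.5-fold were recovered with 9 false calls over 14171 genes. The simulation had the same small spread for each gene, no dam or batch differences, and changes only in genes with high counts. It therefore does not show how smaller changes, low counts or the real embryos would fare. Gene positions are from GENCODE M21, in which 12 of the 28 genes overlap a gene on the other strand and 5 one on the same strand.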

Additional observations from a re-analysis of the deposited data

Results flagged for a closer look

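In 3 of 102 groups of embryos examined, 1 embryo lay far from the rest of its group. Hsd17b7 in RGC was 14.0 CPM in saline embryo S2-2, with the other saline embryos between 11.8 and 12.4. Lbr in Int was 31.7 CPM in EtOH embryo E1-1, with the others between 21.3 and 24.99. Pmvk in RGC was 14.4 CPM in EtOH embryo E2-1, with the others between 11.5 and 12.4. Chance alone marks about 1 in 20 groups.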

How the results depend on the processing

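The 3 class calls (3.75% of all genes called) moved to 1 with the batch of the embryo as a replicate block (Idi1, 2.30% of all genes), to 1 with voom and the dam as a random block (Idi1, 5.82%), and to 0 with counts summed per dam (1.23%) or thinned to the smallest library (0.921%). Class calls lay between 0 and 7 and cluster calls between 0 and 10 when 1 embryo was left out, with 7 and 10 without S2-4 and 0 and 0 without any other embryo. Calls over all genes moved likewise, from 2528 in classes to 11363 without S2-4 and to between 0 and 1320 without another embryo, with 0 without E2-2, S1-2 or S2-1, so the loss was not particular to these genes. Idi1, Npc2 and Lbr thus each kept their call in 1 of 11 such fits, without S2-4, and in 4 of 8 other settings, where the adjusted p reached 0.372, 0.329 and 0.216, with the sign unchanged in all. Leaving out nuclei with a shared barcode, chosen after seeing the data, left 2 class calls. The causes were not tested. Cluster calls were 1 with DESeq2 (2.61% of all pairs called), 2 without the filter (2.07%) and 2 with voom (2.24%). No median over the genes moved by more than 1 SD between embryos. With thinning, the sign turned for Dhcr7 (-0.022), Msmo1 (-0.019), Mvd (-0.079) and Npc1 (-0.047) in RGC and for Lbr in Int (0.11) and in the other clusters (0.052). Nsdhl in RGC turned without the filter (-0.015) and with an embryo left out (-0.017 to 0.055), and Hsd17b7 in RGC lay between -0.088 and 9.2e-05 with an embryo left out. The 30-nuclei limit left no fit for Clusters 24 and 25, nor dam sums for Cluster 25. Same-numbered embryos were numbered in accession order, so the numbers do not pair embryos. Low counts of Fdps and Ebp limit what could be seen.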
